A study of Mus musculus with 6 samples.

Results

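The genes for AP-1 transcription factors and their closest basic leucine zipper (bZIP) partners were followed in bone marrow-derived macrophages (BMDMs) after 1 h of lipopolysaccharide (LPS). The group held 10 genes, Fos, Fosb, Fosl1, Fosl2, Jun, Junb, Jund, Atf3, Batf and Maff, which were the rows of the 55335-row count table whose Ensembl identifier, without its version, carried 1 of these names in GENCODE M21. All 10 were found, and all 10 passed the filter on low counts. Marrow of C57BL/6 mice, described in the study as males of 7 to 10 weeks, was cultured for 6 d with medium conditioned by L929 cells and then given either PBS, the control, or LPS. Each treatment had 3 libraries of total RNA, numbered 1 to 3 and assigned to batches 1 to 3 in the labels. No genotype other than C57BL/6 and no further agent separated the groups, and the LPS dose of these cultures is not given in the sources used here, which state one for transfected cells. The labels do not say whether the batches came from separate animals, so the p-values measure the spread between these libraries, which may be technical.

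AP-1 is a dimer of bZIP proteins. FOS proteins bind DNA only after pairing with a JUN protein, whereas JUN proteins can also pair with one another, and the composition of the dimer determines how strongly it activates transcription. FOS, FOSB, JUN and JUNB are classed as immediate early gene products, because their genes can be transcribed without new protein synthesis, and in macrophages they lie downstream of Toll-like receptor 4 through the ERK, JNK and p38 MAP kinases. ATF3, BATF and MAFF join the same network as JUN partners or as small bZIP proteins that lack a classical activation domain and can repress the sites they occupy.

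The stretches of DNA just before the RefSeq start sites of 6 of the genes are shown because these genes cover the range of responses, from the highest log2 fold change to the lowest. RefSeq gave start sites for 9 of the 10 genes, on GRCm38.p6, with 11 windows in all. Each stretch holds 220 bases on the strand of its gene, from chr7:19310046-19310265 (minus strand) for Fosb, chr15:79347300-79347519 (plus strand) for the second of 3 Maff starts, chr8:84978749-84978968 (minus strand) for Junb, chr12:85473670-85473889 (plus strand) for Fos, chr4:95052223-95052442 (minus strand) for Jun and chr1:191183334-191183553 (minus strand) for Atf3. The last 6 bases of the Fosb stretch and the last 7 of the Atf3 stretch lie inside exons of GENCODE M21. The Atf3 stretch precedes a start at 191183333, which lies within the annotated gene, whose 5′ end is at 191218039. The GENCODE start nearest to it is 7 bp away. Capitals mark matches to the motifs listed after the sequences.
Fosb: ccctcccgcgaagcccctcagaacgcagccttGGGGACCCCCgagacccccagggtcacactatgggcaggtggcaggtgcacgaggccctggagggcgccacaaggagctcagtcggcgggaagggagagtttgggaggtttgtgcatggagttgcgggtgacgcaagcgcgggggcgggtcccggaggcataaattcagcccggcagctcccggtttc
Maff: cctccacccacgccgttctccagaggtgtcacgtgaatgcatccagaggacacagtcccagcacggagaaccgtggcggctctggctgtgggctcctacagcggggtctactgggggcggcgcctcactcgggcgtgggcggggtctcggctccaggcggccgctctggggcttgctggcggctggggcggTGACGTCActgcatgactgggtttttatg
Junb: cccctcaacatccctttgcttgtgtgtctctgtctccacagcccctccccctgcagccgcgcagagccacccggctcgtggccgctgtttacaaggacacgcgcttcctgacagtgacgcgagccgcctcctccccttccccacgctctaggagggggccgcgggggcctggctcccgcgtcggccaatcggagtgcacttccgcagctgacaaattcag
Fos: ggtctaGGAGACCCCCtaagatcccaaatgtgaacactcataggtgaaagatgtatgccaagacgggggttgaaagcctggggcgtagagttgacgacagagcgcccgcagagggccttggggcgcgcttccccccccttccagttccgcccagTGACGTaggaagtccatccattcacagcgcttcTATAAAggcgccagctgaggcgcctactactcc
Jun: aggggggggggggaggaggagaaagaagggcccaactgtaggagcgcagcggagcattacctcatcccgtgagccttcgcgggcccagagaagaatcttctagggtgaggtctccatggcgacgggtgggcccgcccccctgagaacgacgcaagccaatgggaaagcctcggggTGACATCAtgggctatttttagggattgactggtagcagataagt
Atf3: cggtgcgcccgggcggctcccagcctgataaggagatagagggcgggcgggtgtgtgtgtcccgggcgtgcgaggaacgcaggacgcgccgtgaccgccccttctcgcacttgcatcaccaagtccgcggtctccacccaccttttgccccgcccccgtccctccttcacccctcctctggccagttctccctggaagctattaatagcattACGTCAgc

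The motifs were chosen after these sequences had been read, and the matches are a description without a test. TGACGT, the core of the cyclic AMP response element, occurred on either strand within 250 bases before the start in Fos, Atf3, Batf and Maff, against 6.47% of the 32851 RefSeq promoter windows. The full palindrome TGACGTCA, which contains TGACGT, occurred only in Maff among the 9 genes, against 1.55% of windows. TGACATCA, the variant known from the Jun promoter, lay 45 to 38 bases before the Jun start and also before the third Maff start, against 2.93% of windows. The consensus AP-1 site TGANTCA occurred in none of the 9, against 6.75% of windows. TATAAA on the sense strand occurred only in Fos, from 33 to 28 bases before its start, against 7.59%. A kappaB site, the motif read by NF-kappaB, matched in Fos, Fosb, Fosl2 and Maff, against 7.25%, and the CArG box read by serum response factor matched in none of these windows, against 1.47%. Bases more than 250 before a start were not searched, so a CArG box or other motif farther upstream, in Fos or any other gene, would be missed. The Junb stretch carried no capital letter. Among the windows not printed, the RefSeq start lay 1210 bp from the nearest GENCODE M21 start for Jund and 299 bp for Fosl2. All 220 bases before the Fosl2 start were GENCODE exon, as were 51 before the Batf start and 65 before the third Maff start. Matches or their absence in these windows may therefore not describe the promoters of the annotated transcripts.

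The libraries held 37787611 to 41516330 counts. Expression is given as CPM, the count scaled to a fixed library total, divided by the trimmed mean of M values (TMM) scaling factor of each library, and 3 counts, taken as the limit of detection for counting error, equalled 0.0630 to 0.0919 CPM. The TMM factors averaged 1.15 in PBS and 0.869 in LPS, so that equal counts stand for a higher scaled level in LPS. The 10 macrophage markers, Adgre1 and Csf1r among them, were all present and summed to 30262 to 31550 CPM in PBS and 36204 to 36554 CPM in LPS. The 40 markers of other cell types summed to 67.4 to 67.6 CPM in PBS and 93.0 to 96.3 CPM in LPS. Within these, all 5 dendritic cell markers rose by both criteria given below. Their sum was 3.32 to 4.23 CPM in PBS and 10.05 to 10.995 CPM in LPS, and Xcr1 among them had only 2, 1 and 2 counts in PBS. Of the 6 stromal and endothelial markers, 1 rose, the endothelial gene Cdh5, and 0 fell. Among the erythroid markers, 4 of 5 stayed at or under 3 counts in every library. Over all tested genes, 10.5% rose by both criteria and 20.9% were called in either direction. The 8 neutrophil and progenitor markers summed to 42.8 to 44.2 CPM in PBS and 58.4 to 59.6 CPM in LPS, of which 7 were tested and 0 were called by both criteria in edgeR's test, and Ly6g stayed at or under 3 counts. The part of these markers in the differences below was not tested. In bulk RNA, fewer cells of a type and less RNA per cell cannot be told apart.

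A gene was called when edgeR's quasi-likelihood test gave it an adjusted p below 0.05 together with a log2 fold change beyond 1 or -1. By both criteria 6 of the 10 AP-1 genes rose in LPS and 0 fell in edgeR's test (and in DESeq2's), whereas 10.5% of the 15687 tested genes rose, 10.4% fell and 20.9% changed in all. Fosb, Maff, Fosl2, Junb, Fosl1 and Fos rose, and Batf, Jund, Atf3 and Jun stayed below the fold criterion. With the adjusted p alone, 9 of the 10 passed, 8 higher and 1, Jun, lower, the same counts as with an unadjusted p below 0.05, against 67.7% of all tested genes. The PBS and LPS libraries did not overlap in scaled CPM for any of the 10, which also held for 70.5% of all tested genes and is therefore little guide on its own. The median log2 fold change was 2.82 over the 10 genes and -0.01 over all tested genes. The 10 genes were chosen with earlier results of these data known.

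**Figure D1:**
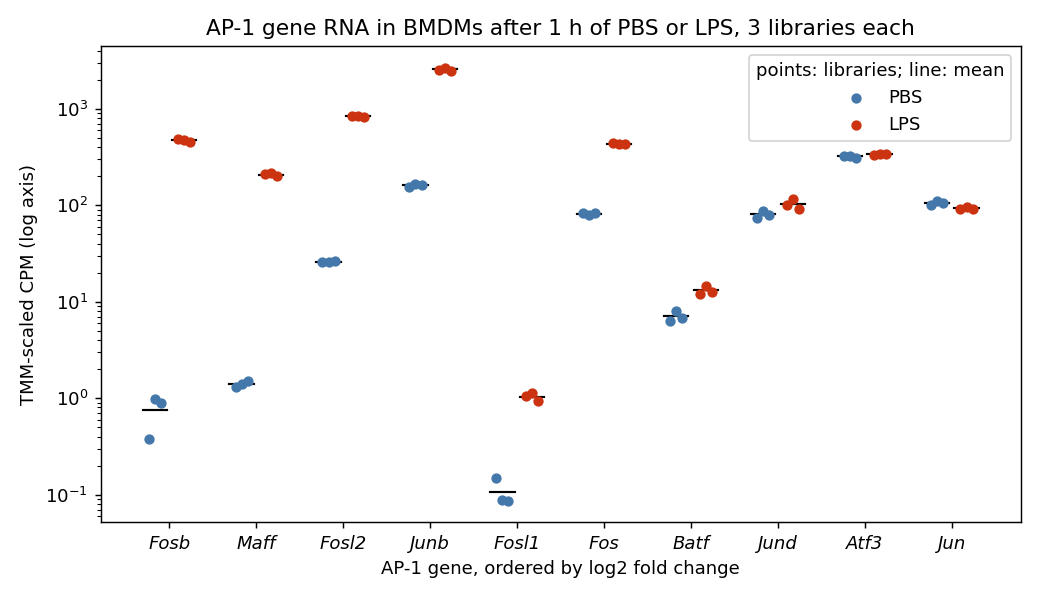
TMM-scaled CPM of each AP-1 gene on a log axis, with 1 point per library, a line at the mean of 3 libraries, and genes ordered by log2 fold change. Fosb and Maff start at means of 0.747 and 1.40 CPM in PBS and reach 471 and 207 CPM in LPS, while for Atf3 and for Jun the PBS and LPS points lie close together.

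Among the genes of the FOS family, Fos rose least but was by far the most abundant before stimulation. Fos (chr12:85473890-85477273, plus strand), the founding member, had 3952, 3576 and 3826 counts in PBS replicates 1 to 3 and 14639, 14159 and 14531 in LPS. Each LPS library thus held more than every PBS library, with little spread in either group. Scaled expression rose from 81.7 ± 2.20 to 432 ± 4.80 CPM (SD, n = 3). The log2 fold change was 2.40 (SE 0.03), with an adjusted p of 2.35e-20 in edgeR's quasi-likelihood test.

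Fosb (chr7:19302696-19310051, minus strand) encodes a FOS-like activator and a shorter splice form that lacks part of the activation domain, which gene counts do not separate. It was nearly silent in control cells, with 18, 44 and 41 counts, and was present at 16283, 15515 and 15376 counts in LPS. PBS replicate 1 was the lowest library, at 0.378 CPM against 0.974 and 0.889 CPM in replicates 2 and 3. Expression rose from 0.747 ± 0.322 to 471 ± 17.2 CPM, a log2 fold change of 9.30 (SE 0.10, adjusted p = 3.15e-22). Within batches the log2 ratio was 10.33, 8.93 and 8.99, so the first batch gave the highest ratio through its low control value. Only 23 of the tested genes had a higher log2 fold change.

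Fosl2 (chr5:32135801-32157842, plus strand), which encodes FRA-2, a FOS relative without a strong activation domain, had 1226, 1159 and 1223 counts in PBS and 28536, 27580 and 27858 in LPS. The libraries of each group lay close together and the groups were far apart. The mean rose from 26.0 ± 0.467 to 838 ± 17.02 CPM, a log2 fold change of 5.01 (SE 0.04, adjusted p = 7.36e-24), and 192 tested genes had a higher value.

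Fosl1 (chr19:5447547-5455946, plus strand), which encodes FRA-1, was the rarest of the 10 in both groups. Its counts were 7, 4 and 4 in PBS and 35, 37 and 32 in LPS, only just above the limit of detection in control cells. Expression rose from 0.107 ± 0.0343 to 1.04 ± 0.0967 CPM, with a log2 fold change of 3.23 (SE 0.32, adjusted p = 7.30e-08) and the widest standard error of the group. Of its 2033 exonic bp, 1163 are also exon of Ccdc85b on the opposite strand, and the strand setting of the counting is not given in the sources used here, so reads of the pair may not be separated. Ccdc85b itself had a log2 fold change of -0.79 (adjusted p = 1.10e-04), opposite in sign to Fosl1.

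In the JUN family the 3 genes moved apart. Junb (chr8:84974484-84978718, minus strand), a JUN protein that activates less strongly than JUN at single AP-1 sites, had 7408, 7457 and 7415 counts in PBS and 85213, 87098 and 84219 in LPS. In every LPS library Junb had the highest count of the 10 genes. Expression rose from 160 ± 4.74 to 2561 ± 98.8 CPM, a log2 fold change of 3.996 (SE 0.04, adjusted p = 2.61e-22), and 292 tested genes had a higher value. Junb shares 173 exonic bp with Prdx2 on the opposite strand, whose log2 fold change was -0.06 (adjusted p = 0.0913).

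Jun (chr4:95049034-95052222, minus strand), a single-exon gene whose product is the archetypal partner of FOS, was the only member below control in all 3 batches. Its scaled level was 100.6, 109.5 and 105.4 CPM in PBS and 91.5, 96.4 and 90.6 CPM in LPS, so every LPS library lay below every PBS library by a small margin. The log2 fold change was -0.18 (SE 0.04, adjusted p = 5.54e-04), which passed the p criterion and not the fold criterion. The sign was negative under every scaling tried, from -0.59 to -0.15 over all alternatives. Junos, an antisense gene that shares 232 exonic bp with Jun, gave -0.29 (adjusted p = 0.334).

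Jund (chr8:70698949-70700616, plus strand), also a single-exon gene and usually described as the constitutive JUN protein, had 73.7, 87.2 and 79.5 CPM in PBS and 99.9, 116 and 91.4 CPM in LPS. The lowest LPS library was only slightly above the highest PBS library. The log2 fold change was 0.35 (SE 0.07, adjusted p = 1.73e-04) with TMM scaling, but -0.05 (adjusted p = 0.473) when libraries were scaled by their size alone, so its direction depends on the scaling. Over all alternatives its adjusted p ran from 1.12e-16 to 0.473. Gm11175, an antisense gene whose 877 exonic bp all lie within Jund, had a log2 fold change of -0.06 (adjusted p = 0.823). Jund and Junb share a chromosome but lie 14273867 bp apart.

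Of the remaining partners, Maff changed most. Maff (chr15:79346621-79359076, plus strand), a small MAF protein without an activation domain, had 62, 63 and 69 counts in PBS and 6988, 7016 and 6770 in LPS. The replicates of each group were almost alike and the groups far apart. Expression rose from 1.40 ± 0.0967 to 207 ± 8.05 CPM, a log2 fold change of 7.21 (SE 0.06, adjusted p = 1.76e-23), and 79 tested genes had a higher value.

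Batf (chr12:85686669-85709087, plus strand), which pairs with JUN proteins and cooperates with IRF factors in lymphoid cells, had 6.32, 7.92 and 6.85 CPM in PBS and 12.1, 14.5 and 12.7 CPM in LPS. The groups were separate, and the log2 fold change of 0.90 (SE 0.09, adjusted p = 1.13e-07) stayed just under the fold criterion. Batf was higher in all 3 batches, by 0.87 to 0.94 on the log2 scale.

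Atf3 (chr1:191170296-191218039, minus strand), a stress-inducible factor known as a brake on Toll-like receptor responses, was the most abundant of the 10 per length in control cells and barely differed between the groups. It had 15572, 14543 and 14376 counts in PBS and 11169, 11006 and 11443 in LPS, so its raw counts were lower in LPS, while its scaled level was 320 ± 7.88 CPM in PBS and 335 ± 2.30 CPM in LPS. The log2 fold change was 0.07 (SE 0.03, adjusted p = 0.0742) with TMM scaling, -0.08 (adjusted p = 0.0445) with upper quartile scaling and -0.34 (adjusted p = 3.02e-08) by library size, so no direction can be given for Atf3 apart from its scaling. With the batch as a block the value stayed at 0.07 and its adjusted p in edgeR's test became 0.0347, within a range of 3.02e-08 to 0.393 over all alternatives.

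**Figure D2:**
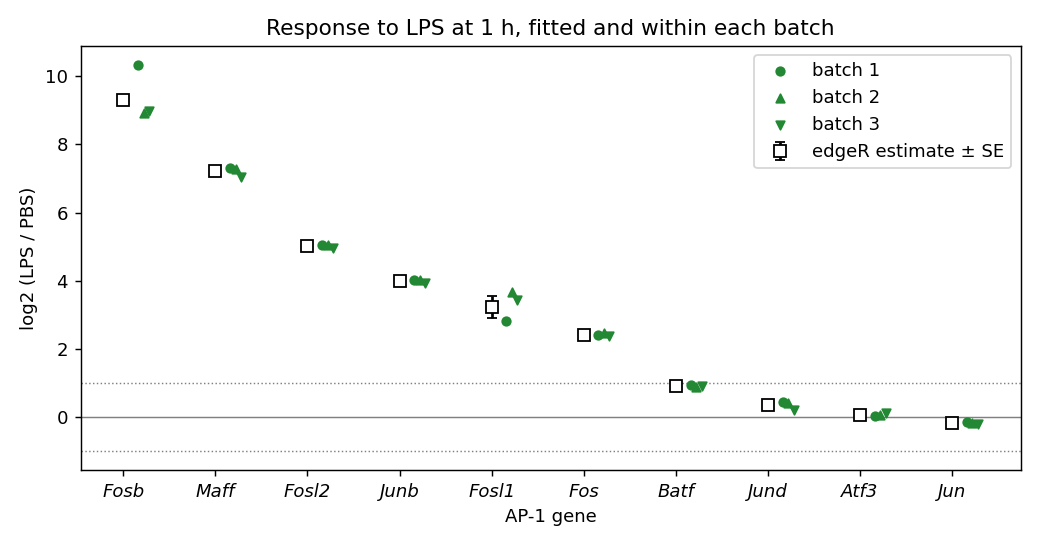
Log2 ratio of LPS to PBS for each AP-1 gene, as the edgeR estimate with its standard error and as the ratio within each of batches 1 to 3, with dotted lines at 1 and -1. The values descend from 9.30 for Fosb to -0.18 for Jun, and the 3 batch ratios of a gene do not reach those of the next gene in the order, while the signs for Atf3 and Jund hold under TMM but not under library size scaling.

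In order of response the 10 genes ran Fosb, Maff, Fosl2, Junb, Fosl1, Fos, Batf, Jund, Atf3 and Jun. The 3 within-batch ratios of neighbouring genes did not overlap at any step of this order. That separation rests on pairing libraries by batch number, and same-numbered libraries were hardly more alike than others (mean correlation 0.0357 against -0.02). Ratios under other pairings are not given, and the lowest LPS library of Jund was only slightly above its highest PBS library. By the difference in log2 fold change, the narrowest step was between Atf3 and Jun, at 0.25, and the widest between Maff and Fosl2, at 2.20.

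**Figure D3:**
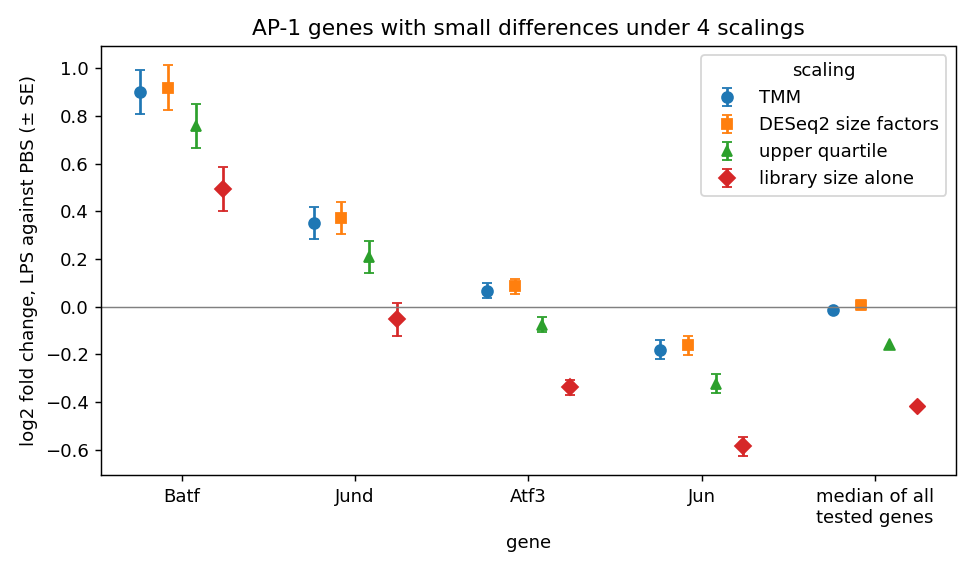
Log2 fold change (± SE) of the AP-1 genes with small differences, and the median of all tested genes, under TMM, DESeq2 size factor, upper quartile and library size scaling. Library size scaling moves the median of all genes to -0.42 and turns Atf3 to -0.34 and Jund to -0.05, upper quartile scaling turns Atf3 to -0.08, and Jun is negative under each.

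The median of all tested genes moved with the scaling. It was -0.01 with TMM, 0.01 with DESeq2 size factors, -0.16 with upper quartile scaling and -0.42 with library size alone. Of the genes called by both criteria, 50.4% were higher in LPS with TMM and 29.0% with library size alone, which gave 1213 higher and 2964 lower. The 6 calls among the AP-1 genes were made under each of these scalings.

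Levels of different genes were compared as scaled CPM per kb of exon (the union of annotated exons). In PBS the order was Atf3 (149 CPM per kb), Junb (69.7), Jund (48.1), Fos (34.7), Jun (32.98), Batf (5.001), Fosl2 (2.68), Maff (0.539), Fosb (0.120) and Fosl1 (0.0528). Fos and Jun overlapped between libraries, as did Fosb and Fosl1, and all other neighbours were separate. After LPS the order became Junb (1113 CPM per kb), Fos (184), Atf3 (156), Fosl2 (86.6), Maff (79.9), Fosb (75.4), Jund (61.3), Jun (29.1), Batf (9.33) and Fosl1 (0.511), and only Maff and Fosb overlapped.

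The composition of the summed AP-1 RNA differed between the groups. Atf3 made up 43.4 ± 1.28% of the summed per-length level of the 10 genes in PBS and 8.68 ± 0.275% in LPS, whereas Junb went from 20.4 ± 0.326% to 62.0 ± 0.374%. Jund went from 14.02 ± 0.924% to 3.41 ± 0.297% and Jun from 9.63 ± 0.265% to 1.62 ± 0.0140%. Fos, although it rose, held 10.1 ± 0.471% in PBS and 10.2 ± 0.277% in LPS (two-sided exact permutation p = 0.8). When levels were divided by the longest annotated transcript instead, its share was 10.15% in PBS and 9.11% in LPS, so the near equality depends on the length used. Fosl2, Maff and Fosb, together minor in control cells, held 4.83%, 4.45% and 4.203% after LPS. For every gene but Fos the shares of the groups were separate, with a two-sided exact permutation p of 0.1, the smallest that 3 against 3 libraries allow.

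**Figure D4:**
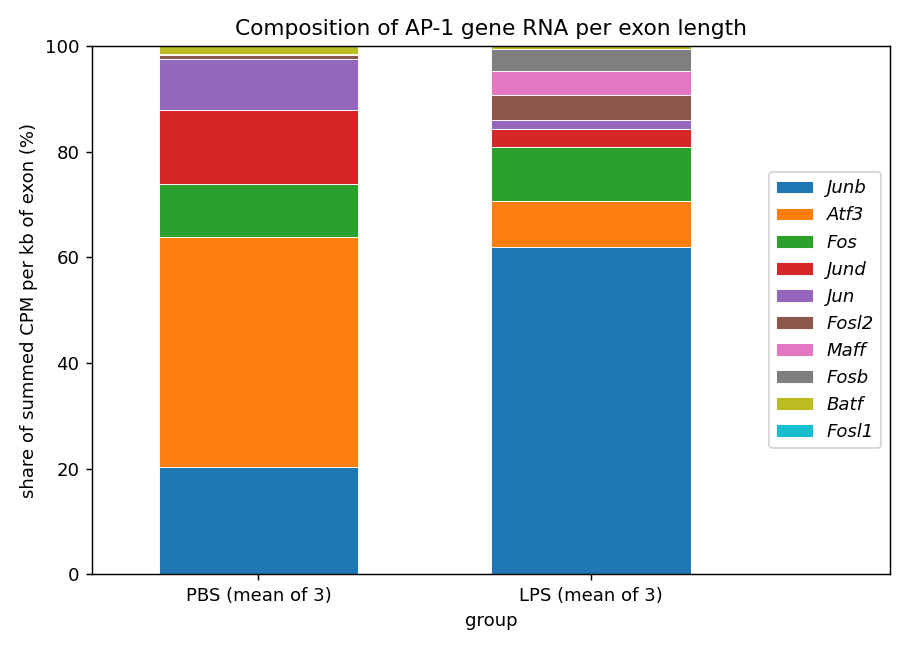
Share of each AP-1 gene in the summed CPM per kb of exon, as stacked bars of the mean of 3 PBS and 3 LPS libraries, on an axis from 0 to 100%. Atf3 takes 43.4% of the PBS bar and Junb 62.0% of the LPS bar, while Fos has 10.1% and 10.2% with this length and 10.15% and 9.11% with the longest transcript.

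Summed per length, the 4 FOS family genes rose from 37.6 ± 0.941 to 346 ± 6.58 CPM per kb, 9.21-fold, and the 3 JUN family genes from 151 ± 7.502 to 1203 ± 51.3 CPM per kb, 7.98-fold. All 10 together rose from 343 to 1795 CPM per kb, or 5.24-fold. Almost all of the JUN family sum after LPS was Junb. The ratio of Junb to Jun per length was 2.09 to 2.14 in the PBS libraries and 37.9 to 38.4 in the LPS libraries. These are RNA amounts, and protein was not measured.

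AU-rich elements, of which ATTTA is the core, are known to shorten the life of many immediate early transcripts. The longest annotated 3′ UTR held 4 ATTTA in 815 bp for Fos, 4 in 1233 bp for Jun, 4 in 1221 bp for Maff, 8 in 4653 bp for Fosl2, 3 in 1186 bp for Atf3 and 2 in 485 bp for Junb. Fosb (2302 bp), Fosl1 (638 bp) and Jund (533 bp) had 1 each, and Batf (335 bp) had 0. Over 11687 tested genes with a 3′ UTR of at least 100 bp the median was 2 per UTR, 72.0% had at least 1 and 39.8% had at least 3. Per kb, Fos had 4.91, Junb 4.12, Maff 3.28, Jun 3.24, Atf3 2.53, Jund 1.88, Fosl2 1.72, Fosl1 1.57, Fosb 0.434 and Batf 0, against a median of 1.36 over the same genes, 10.6% of which had more than 4.

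Relatives of these genes in the wider bZIP network were examined next. Of 17 other AP-1 partners and small MAF relatives, 14 were tested, 3 rose and 0 fell by both criteria in edgeR's test and in DESeq2's, with a median log2 fold change of 0.15. By an unadjusted p below 0.05, 8 were higher and 6 lower. The adjusted p alone gave the same counts, and by it 32.9% of all tested genes were higher and 34.9% lower. The 3 calls of 14 are a share near the 20.9% of all tested genes called in either direction. All 3 were higher in LPS, whereas 10.5% of all tested genes rose and 10.4% fell. Jdp2, a repressive JUN partner, rose from 274, 305 and 265 counts to 6018, 5884 and 5794 (4.86, adjusted p = 6.85e-22). Nfe2l2, which encodes the oxidative stress factor NRF2, rose by 1.64 on the log2 scale, and Bach1, its heme-regulated antagonist, by 1.29. Nfe2 was the lowest, at -0.69. The small MAF relatives of Maff did not follow it, with 0.51 for Mafg and -0.19 for Mafk, both under the fold criterion.

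Jdp2 lies between Fos and Batf on chromosome 12. It starts 121753 bp after the end of Fos and ends 46790 bp before Batf, all on the plus strand, so that 235198 bp hold genes with log2 fold changes of 2.40 (Fos), 4.86 (Jdp2) and 0.90 (Batf). The gene in the middle thus had a higher value than the genes on either side. Atf3 has a bZIP neighbour, Batf3, 61350 bp away, and Batf3 gave -0.69 (adjusted p = 9.86e-04).

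Of the 12 other ATF and CREB genes, all tested, 2 rose and 1 fell, with a median of 0.23. The 3 calls of 12 are a share near the 20.9% of all tested genes. Crem, whose inducible short form ICER represses cyclic AMP response elements, rose from 328, 342 and 345 counts to 3226, 2995 and 3277 (3.70), and Creb5, which can pair with JUN, rose by 1.92. Ddit3, encoding the stress factor CHOP, fell by 1.26 on the log2 scale, from 1016, 914 and 903 counts to 285, 294 and 276. Atf4, the usual activator of both Atf3 and Ddit3 in the integrated stress response, stayed under the fold criterion at 0.35.

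Among the kinases that act on AP-1 proteins and their genes, 24 of 27 were tested, 5 rose and 0 fell in edgeR's test and in DESeq2's, with a median of 0.25. By an unadjusted p below 0.05, 14 were higher and 5 lower. The adjusted p alone gave the same counts, and by it 32.9% of all tested genes were higher and 34.9% lower. The 5 calls of 24 are a share near the 20.9% of all tested genes called in either direction. All 5 were higher in LPS, whereas 10.5% of all tested genes rose and 10.4% fell. Map2k3, which activates p38, rose most (2.53), followed by the p38 substrates Mapkapk3 (1.54) and Mapkapk2 (1.41), by Map3k5 (1.23) and by the JNK1 gene Mapk8 (1.16). Map3k11 was the lowest at -0.90. Values near 0 were found for Mapk3 (0.18) and Mapk14 (-0.003). The activity of these kinases was not measured.

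Serum response factor (SRF) and its ternary complex partners bind the Fos promoter in many cells. Of 10 genes in this list, which also held MEF2 factors, 8 were found by symbol and 7 were tested, and 0 were called by both criteria, although 7 passed the adjusted p alone, each higher in LPS, in edgeR's test. With an unadjusted p below 0.05 the number was also 7, and DESeq2 called 0 by both criteria. Over all tested genes, edgeR called 20.9% by both criteria, and 67.7% passed the adjusted p alone, with 32.9% higher in LPS. The median of the list was 0.44, and values ran from 0.21 for Elk4 to 0.98 for Elk3, with 0.61 for Srf. Without PBS replicate 3, 1 gene of the list was called. Under library size scaling 3 were higher and 2 lower by the adjusted p, so the direction of this list depends on the scaling. The median of the SRF list was 0.04 under that scaling. The medians of the other bZIP, ATF and CREB, and kinase lists were negative under it, at -0.26, -0.17 and -0.16. The calls by both criteria became 2 higher and 2 lower for the other bZIP genes and 3 higher and 1 lower for the kinases. Upper quartile scaling gave 5 higher and 1 lower for the kinases.

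Of 19 genes often described as AP-1 targets, 18 were tested, 12 rose and 0 fell in edgeR's test and in DESeq2's, with a median of 2.76. By an unadjusted p below 0.05, 13 were higher and 3 lower. Over all tested genes, 10.5% rose and 10.4% fell by both criteria. With the adjusted p alone, 12 of the list were higher and 3 lower, against 32.9% and 34.9% of all tested genes. The list was chosen with earlier results of these data known, so its counts and median are a description only. Many genes of the list also answer to NF-kappaB, so the list is not particular to AP-1. Tnf rose from 1007, 935 and 872 counts to 78981, 75054 and 76710 (6.83), the collagenase gene Mmp13 by 4.58, the metallothionein gene Mt2 by 4.52, Vegfa by 3.67 and the urokinase receptor gene Plaur by 3.54. The remaining risers included Timp1 (3.16), Mmp10 (2.94), Cd44 (2.57), Mt1 (2.55) and Plau (2.31). Il6 went from 1, 2 and 4 counts to 5798, 5293 and 5885 and Csf2 from 0, 1 and 1 counts to 672, 684 and 677, with control libraries at the limit of detection, so that no fold is given. Ccnd1, a cell cycle gene that JUN proteins regulate, was the lowest at -0.45, and Mmp12 (-0.26) and Mmp9 (-0.13) were also lower by the adjusted p alone. Hmox1 (-0.08) and Spp1 (-0.04) did not pass it.

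**Figure D5:**
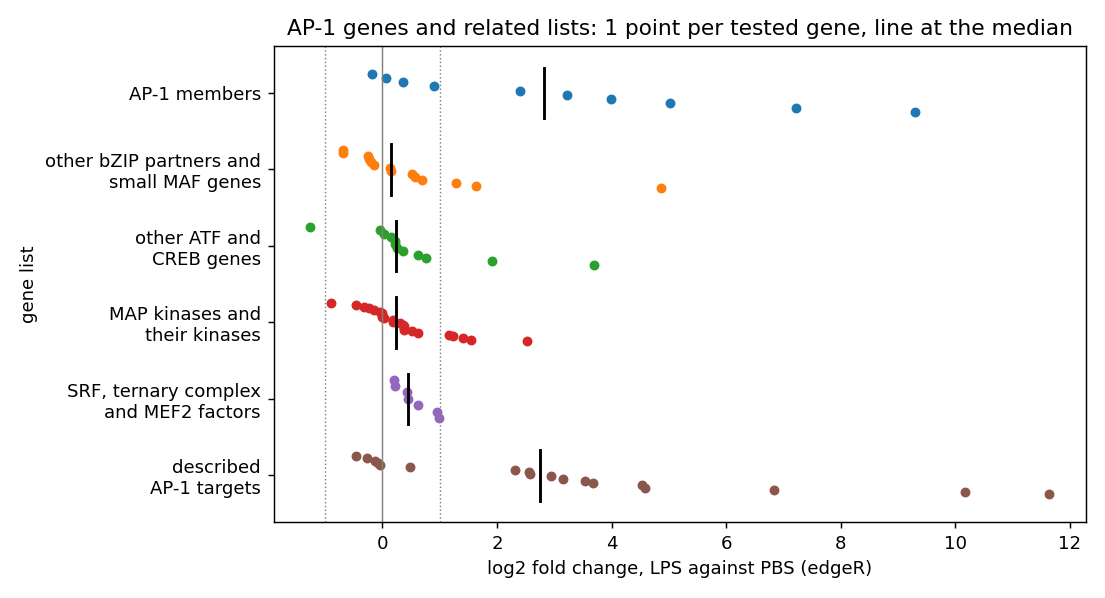
Log2 fold change of each tested gene in the AP-1 group and the related lists, with 1 point per gene, a line at the median of each list and dotted lines at 1 and -1. The medians are 2.82 for the AP-1 genes, 2.76 for the described AP-1 targets and between 0.15 and 0.44 for the other lists, whose signs for small values depend on the scaling. Members and lists were chosen with earlier results of these data known.

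Some genes shared the pattern of a member across the 6 libraries, as judged by the Euclidean distance between log2 CPM values centred on each gene's mean, over genes that averaged 50 counts or more. Klf7 (distance 0.0861), Mapk6 (0.0865) and Spty2d1 (0.0912) were nearest to Fos. Nudt3 (0.0287), Oser1 (0.0445) and Vamp8 (0.0505) were nearest to Jun. The measure mainly reflects the size of the difference between the groups, with log2 fold changes of 2.36 to 2.47 for the genes near Fos.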

How the data were processed

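Total RNA of BMDMs was sequenced in 3 PBS and 3 LPS libraries at 1 h, grouped by the treatment in the labels. The deposited values are raw counts of reads per gene, which the authors made from reads aligned to GRCm38 with HISAT2 2.1.0, SAMtools 1.17 and featureCounts 2.0.0 after FastQC 0.11.9, tools that the submitters' processing notes name. The annotation release, strand setting and treatment of multi-mapping reads are not given in the sources used here, while the library kit is stranded. Of 55335 gene identifiers, 55154 matched GENCODE M21 without the version. Coordinates are 1-based, on GRCm38.

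Counts were tested in edgeR 4.0.16 (R 4.3.3) with filterByExpr (15687 genes), TMM scaling, the quasi-likelihood test and Benjamini-Hochberg adjustment over all tested genes, after a check on simulated counts. Fold changes are LPS against PBS, and each standard error is the fold change over the root of its quasi-likelihood F. Depth was 37787611 to 41516330 counts, and floors cover counting error only. Alternatives were other scalings and filters, DESeq2 1.42.0, voom of limma 3.58.1, a replicate block and leaving out each library. Promoter sequences came from RefSeq on GRCm38.p6.

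The labels call the replicate number a batch in both groups, so the numbers pair the libraries. Deviations of same-numbered libraries correlated at -0.01 to 0.08, with a mean of 0.0357 against -0.02 for other pairs. The block was an alternative, since the study's methods name none.

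The members and lists were chosen with earlier results of these data known. Named genes were the 10 members, list members past the criteria and each list's highest and lowest, exon-overlapping genes, nearest bZIP neighbours, and the 3 genes most like Fos and Jun. Atf4, Mafg, Mafk, Mapk3, Mapk14, Srf, Mmp9, Mmp12, Hmox1, Spp1 and Cdh5 were named outside this rule, after their values were seen.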

Additional observations from a re-analysis of the deposited data

How the results depend on the processing

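Of the values recomputed for the AP-1 genes singly, 136 kept their direction and their side of the combined criteria and 3 reversed, namely Atf3 (-0.34) and Jund (-0.053) with library size scaling and Atf3 (-0.076) with upper quartile scaling. Atf3, with an adjusted p of 0.0742, passed the p criterion alone with DESeq2 size factors (0.0249), DESeq2 (0.0160), voom (0.0491), the replicate block (0.0347) and without PBS replicate 1 (0.0496), within a range of 3.02e-08 to 0.393. Of the counts and shares, 134 stayed close and 12 moved. Counts were judged by the total called, whatever its direction, so a count could stay close while its direction shifted. With library size scaling, 1213 genes were higher and 2964 lower, against 1653 and 1624 with TMM. The number of AP-1 genes called was 5 to 6 over all alternatives, with 5 when 10 counts were required in every library, because Fosl1 was then not tested. That filter left 13793 genes and called 2168 of them, and the other settings called 3157 to 4193. With each library left out in turn, 0 to 1 gene of the SRF list was called (1 without PBS replicate 3), 6 AP-1 genes were called each time, and the log2 fold change of Fosb ran from 8.98 to 9.54. With the replicate block, 6 AP-1 genes and 3276 genes in all were called. The block changed no call by both criteria among the AP-1 genes.

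Dividing by the longest annotated transcript in place of the exon union moved the shares, to 23.2% for Junb, 8.63% for Jun, 1.04% for Fosl2 and 0.0515% for Fosb in PBS, and to 62.8% for Junb, 9.11% for Fos (10.15% in PBS), 7.51% for Atf3, 5.69% for Fosl2, 5.53% for Fosb and 1.29% for Jun in LPS. Which transcripts the cells used was not tested. Depth limited Fosl1 most, with 4 to 7 counts in PBS.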
